A study of Mus musculus with 10 samples.

Results

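The 143 long snoRNAs were the rows of a small RNA count table that the table types as snoRNA, whose span from start to end passed a length limit set between box C/D and box H/ACA sizes, just above 113 nt, and that held at least 100 counts summed over 10 libraries. They were 143 of the 6968 rows of the table and 143 of its 695 snoRNA rows. Another 328 snoRNA rows of that length held fewer counts and were left out. The members were thus chosen by length and by their summed counts, so neither is a result. Just inside the count limit lay Gm22027, Gm25683 and ENSMUST00000157453 with 107, 114 and 119 counts, and just outside lay Gm26048, Gm22353 and Gm25273 with 98, 94 and 87 counts. The shortest rows inside the length limit were Gm24438, Gm26394 and, with 121 nt, Snora26, while Gm26003 with 113 nt and Snord90 and Snord67 with 111 nt each fell outside.

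The RNA came from CD43- splenic B-cells of wt mice, of 3'RR-deficient mice, which lack the enhancer cluster (3'RR) at the far end of the IgH locus, where the immunoglobulin heavy chain is encoded, and of Eµ-deficient mice, which lack its intronic enhancer. Per the study's methods all mice had a 129 background and were males and females of 8 to 12 weeks, and the Eµ line is an EµMAR deletion. The study's results refer to an earlier report that follicular B-cells are lacking in this line. Cells were cultured for 2 days without stimulation or with LPS, a bacterial product that activates B-cells, at 5 µg/ml per the sample labels. Each library pooled cells of 2 mice, and there were 2 libraries per condition for wt and for 3'RR-deficient cells and 1 per condition for Eµ-deficient cells. The spread between replicates is therefore one between pools. For the rRNA-depleted libraries of long RNA the methods describe cells taken before stimulation, whereas the labels of these small RNA libraries give the same culture time in both conditions.

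Small nucleolar RNAs (snoRNAs) are stable noncoding RNAs that guide the chemical modification of other RNAs. Box H/ACA snoRNAs form a pair of hairpins that end near an ACA and guide pseudouridylation, whereas box C/D snoRNAs carry the short C (TGATGA) and D (CTGA) boxes and guide 2'-O-methylation. Small Cajal body RNAs (scaRNAs) do the same for the RNAs of the spliceosome, and a few snoRNAs such as U3, U8 and U17 act in the cleavage of the rRNA precursor. Most mammalian snoRNAs are cut out of introns of genes for translation and ribosome function, and lymphocytes that start to divide raise their ribosome production. The libraries held short inserts, so a count here is a fragment of a snoRNA and not the whole molecule.

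The label of the group is box H/ACA length, and it was checked against sequence. GENCODE M21 (GRCm38) gave a sequence for 136 of the 143 rows. In 94 of 136 (69.1%) the letters ACA stood exactly 3 nt from the 3' end, against 6.90% of 116 sequences of the short snoRNAs (below the length limit, same count limit, 124 rows). With a distance of 2 to 6 nt allowed, 107 of 136 long rows matched. TGATGA in the first 20 nt together with CTGA in the last 15 nt was found in 7 long rows (5.15%) and in 53.4% of the short ones. By rows the label held for most of the group. By reads it did not, because the 107 ACA rows held 20.2% of the 771373 counts of the long snoRNAs. The 7 rows with C and D letters held 33.0%, and 22 rows with neither pattern, U8 and U3 among them, held 46.4%. The rows are therefore called long snoRNAs below. Only these letters on the transcript strand were searched, and a row without them may still be of either class.

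The sequences that carried most reads, or that the comparisons below turn on, are given 5' to 3' from GENCODE M21 on GRCm38, at the positions of the table. The rows Snord118 (U8, chr11:69073427-69073561, plus strand) and Gm24208 (chr12:13163629-13163763, minus strand) are near-copies, and capitals mark the 6 bases at which they differ.
Snord118: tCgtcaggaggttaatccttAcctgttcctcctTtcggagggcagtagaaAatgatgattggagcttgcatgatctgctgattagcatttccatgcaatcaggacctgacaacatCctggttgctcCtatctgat
Gm24208: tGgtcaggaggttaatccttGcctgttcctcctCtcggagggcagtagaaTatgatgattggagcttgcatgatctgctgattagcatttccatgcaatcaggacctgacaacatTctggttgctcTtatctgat
Short reads from the stretches they share cannot be assigned to one of them, and how such reads were counted is not given in the sources used here.

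Snord17 (chr2:144265979-144266216, minus strand, in an intron of Snx5) and Gm25835 (chr11:69668852-69668995, minus strand, in an intron of Eif4a1) hold box C and D letters, and capitals mark the first TGATGA and the last CTGA.
Snord17: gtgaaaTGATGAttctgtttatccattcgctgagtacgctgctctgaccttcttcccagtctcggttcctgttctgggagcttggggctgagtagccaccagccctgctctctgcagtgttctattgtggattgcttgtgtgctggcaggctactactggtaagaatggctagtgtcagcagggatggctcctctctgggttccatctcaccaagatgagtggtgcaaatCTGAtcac
Gm25835: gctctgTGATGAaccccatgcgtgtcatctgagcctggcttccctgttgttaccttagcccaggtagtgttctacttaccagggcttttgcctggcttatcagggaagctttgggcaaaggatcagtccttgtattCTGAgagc
Snora16a (chr4:132309465-132309600, plus strand, in an exon of the noncoding host gene Snhg12), Scarna8 (chr4:86586453-86586583, minus strand, in an intron of Haus6) and Gm22676 (chr2:112500869-112500997, plus strand, in an intron of Aven) end in the H/ACA manner, and capitals mark the ACA.
Snora16a: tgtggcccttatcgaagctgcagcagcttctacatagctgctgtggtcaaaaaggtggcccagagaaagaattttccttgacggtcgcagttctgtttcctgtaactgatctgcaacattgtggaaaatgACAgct
Scarna8: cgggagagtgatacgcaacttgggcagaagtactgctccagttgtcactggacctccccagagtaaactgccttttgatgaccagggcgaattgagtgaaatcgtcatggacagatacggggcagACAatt
Gm22676: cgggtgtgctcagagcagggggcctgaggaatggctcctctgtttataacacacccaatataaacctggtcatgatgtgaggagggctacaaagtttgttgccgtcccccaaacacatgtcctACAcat
Scarna3a (chr1:159340283-159340422, plus strand, in an intron of Cop1) and Scarna3b (chr12:80391613-80391751, minus strand, in an exon of Dcaf5) each contain a mature microRNA pair with a row of its own in the table, and capitals mark the microRNA positions.
Scarna3a: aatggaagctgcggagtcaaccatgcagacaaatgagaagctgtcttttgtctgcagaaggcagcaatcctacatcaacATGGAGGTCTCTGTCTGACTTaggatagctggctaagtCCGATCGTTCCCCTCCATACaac
Scarna3b: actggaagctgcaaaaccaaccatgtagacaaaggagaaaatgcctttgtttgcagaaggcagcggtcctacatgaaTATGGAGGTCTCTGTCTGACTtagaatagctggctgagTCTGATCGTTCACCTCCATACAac
The mature microRNAs in them, from RefSeq (GRCm38.p6), are shown with the seed (bases 2 to 8) in capitals. The seeds of both 5p arms share 6 letters at an offset of 1 base, and each has 1 letter beyond them.
miR-1843b-5p in Scarna3a: aUGGAGGUcucugucugacuu
miR-1843b-3p in Scarna3a: cCGAUCGUuccccuccauac
miR-1843a-5p in Scarna3b: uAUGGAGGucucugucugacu
miR-1843a-3p in Scarna3b: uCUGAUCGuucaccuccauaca

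Among the 143 rows, 73 lay in introns, 31 overlapped exons and 39 lay between genes. The longest row measured 343 nt and the median was 135 nt, and 111 rows measured 120 to 150 nt. M21 types 123 rows as snoRNA and 13 as scaRNA, and 7 rows had no match. Near-copies were common, and 60 rows fell into 24 groups of at least 90% identity, the largest with 5 rows. Snora57 and Gm26132, 148 nt each and 95.9% identical, had 3473 and 3400 counts with nearly equal values in each library, so such rows are not independent measurements.

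Levels are given as CPM, counts relative to library size over all features, after TMM scaling, a method that sets the libraries to a common level through features of ordinary change. The reads were concentrated in few rows. Snord118 held 23.3% of the counts of the long snoRNAs, Snord17 held 18.2%, Gm25835 9.63%, Gm24208 9.04% and Gm23262, in an exon of Eif4g2, 7.26%. Rnu3a, which encodes U3, the snoRNA that starts cleavage of the small-subunit rRNA, held 4.54%. The U8 rows, Snord17 and U3 together made up 55.1%, and the 10 rows with most counts made up 82.3%. These are shares of reads with no correction for length. The median row had 585 counts in all, and 47 rows had at least 1000.

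**Figure D1:**
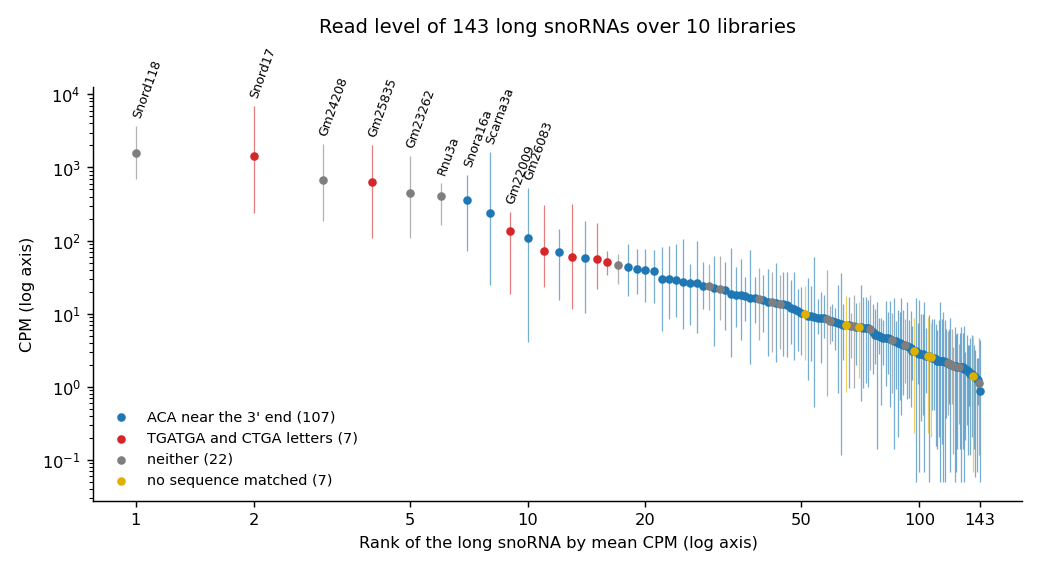
Level of each of the 143 long snoRNAs in CPM (y, log axis) against its rank by mean CPM (x, log axis). Points are means of 10 libraries, vertical lines run from the lowest to the highest library (values under 0.05, zeros included, drawn at 0.05), colours give the letters found in the sequence, and the 10 leading rows are named. The ranks 1 to 6 hold no row with ACA letters, although these letters occur in 107 of the 143 rows.

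Library depth ranged from 3482540 to 18144016 counts. The long snoRNAs took 0.358% and 0.865% of the counts in non-stimulated wt cells, 0.395% and 0.690% in non-stimulated 3'RR-deficient cells, and 1.08% in the non-stimulated Eµ-deficient library. With LPS the shares were 0.532% and 0.397% in wt, 1.03% and 0.415% in 3'RR-deficient and 1.49% in Eµ-deficient cells. The Wilson 95% intervals were narrow (0.855% to 0.875% for the 0.865% library), cover counting error only and were much smaller than the gaps between replicates. The mean share was 0.678% ± 0.309 (SD, n = 5) without LPS and 0.774% ± 0.478 (n = 5) with LPS, so the conditions differed by less than the spread between libraries. Short snoRNAs took 2.61% to 9.37%, and there were 11.1 to 18.4 long snoRNA counts per 100 short ones.

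**Figure D2:**
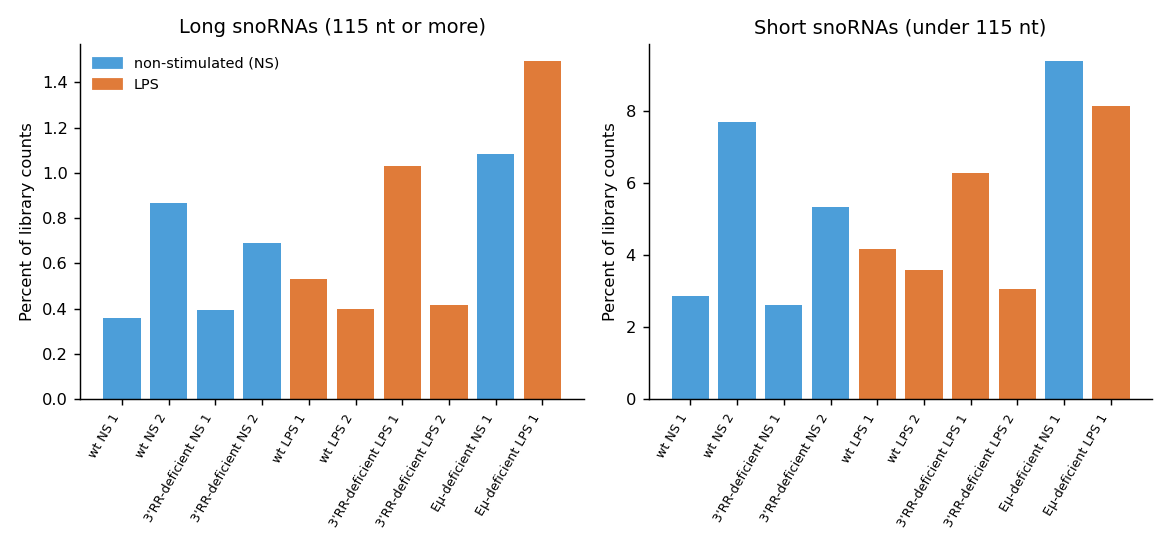
Percent of all counts of a library (y) in long snoRNAs (left) and in short snoRNAs (right) for the 10 libraries (x), with non-stimulated libraries in blue and LPS libraries in orange. Each bar is 1 library; the Eµ-deficient LPS library has the highest long share, 1.49%, and the wt non-stimulated replicate 1 library the lowest, 0.358%.

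Both non-stimulated replicate 2 libraries stood apart. Their rRNA share was 0.347% in wt and 0.266% in 3'RR-deficient cells, against 0.00743% to 0.0423% in the other 8 libraries. In wt, 119 of the 143 long snoRNAs were higher in replicate 2 than in replicate 1 without LPS (median log2 difference 1.21), and in 3'RR-deficient cells 100 of 143 were (median 0.68). Snora74a, the H/ACA snoRNA U19, was at 8.84 and 9.84 CPM in the replicate 1 libraries and at 83.3 and 53.9 CPM in the replicate 2 libraries. The counts of long snoRNAs called for LPS over all genotypes and for Eµ-deficient cells are therefore also given without both libraries, and the other results below are not. For the cell type on the labels, 4 microRNAs taken as B-cell markers, miR-150-5p, miR-142a-3p, miR-142a-5p and miR-181a-5p, were present in all 10 libraries. That they are limited to B-cells was not tested. The replicate 2 libraries stood apart here too, since miR-142a-5p was at 160703 and 98850 CPM in the non-stimulated wt and 3'RR-deficient replicate 1 libraries but at 4522 and 3942 CPM in replicate 2, and miR-142a-3p at 8679 and 3886 against 163 and 149 CPM. In contrast, miR-150-5p was at 32812 to 55700.4 CPM in these 4 libraries. The microRNA miR-155-5p, which LPS induces in B-cells, was at 3958 to 9435 CPM without and at 18348 to 51288 CPM with LPS.

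The LPS response was fitted over all genotypes in 10 libraries with edgeR's quasi-likelihood test, and p-values were adjusted by Benjamini-Hochberg (BH) over the 4554 features tested. All 143 long snoRNAs were among these. With LPS 28 long snoRNAs were lower and 2 were higher, 30 of 143 in all, while 8.21% of all features tested passed the threshold (4.19% lower and 4.02% higher). The 30 rows came from 26 groups of near-copies. The median log2 fold change of the long snoRNAs was -1.30, against 0.01 over all features and -0.33 over the short snoRNAs, of which 31 of 124 passed. For the 111 long snoRNAs that reached 100 counts in the LPS libraries alone the median was -1.21, with 21 lower. In bulk RNA, fewer cells of a type and less of an RNA per cell cannot be told apart. MicroRNAs of other cell types had lower medians with LPS as well, which was not tested. The 3 erythroid ones summed to 1536 to 9243 CPM (median 4190) without and 63.4 to 1817 CPM (median 227) with LPS. The myeloid miR-223-3p was at 284 to 5765 (median 1671) and at 35.0 to 252.4 CPM (median 73.2). The 3 endothelial and stromal ones summed to 117 to 933 (median 239) and to 35.2 to 428 CPM (median 50.5). The erythroid ranges overlapped, as did the endothelial and stromal ones. Single values went the other way, such as erythroid miR-144-3p in non-stimulated wt replicate 2 (1.64 CPM), below its lowest LPS library (4.97 CPM). The 4 microRNAs taken as B-cell markers summed to 66277 to 225825 CPM without and 27312 to 51355 CPM with LPS. In the highest of these sums miR-142a-5p alone was at 160703 CPM. The part of cell composition in the LPS values was not tested.

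**Figure D3:**
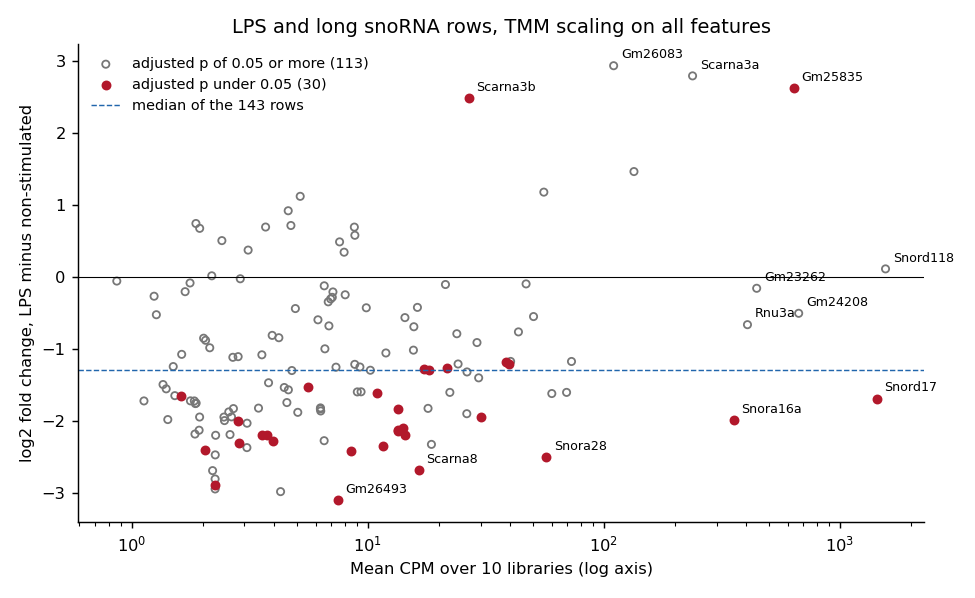
Log2 fold change of LPS over non-stimulated cells (y) against mean CPM over 10 libraries (x, log axis) for the 143 long snoRNAs, fitted over 3 genotypes. Filled points passed an adjusted p of 0.05 and open points did not; the dashed line is the median of -1.30, and among the named rows Gm25835 and Scarna3b lie above 0 and Gm26493 lowest at -3.11.

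How many rows passed, and in which direction, depended on the scaling. Total count scaling gave 4 higher and 6 lower, TMM on microRNA rows alone 7 higher and 8 lower, and a fit of the snoRNA rows alone 12 higher and 11 lower. The shares of all features called in these fits were 11.7%, 14.4% and, of the 301 snoRNA rows in the last one, 19.3%, beside 10, 15 and 23 of the 143 long snoRNAs. The median log2 fold change of all features was 0.45 and 0.57 under the first 2 scalings and that of the long snoRNAs -1.03 and -0.86, while in the fit of snoRNA rows alone the median was -0.26 over its 301 rows and -0.65 over the long ones. In all 5 scalings the 30 rows kept their direction, and 7 of them passed in each: Gm25835 and Scarna3b, which were higher, and Gm26493, Scarna8, Gm24336, Snora16a and Gm23297, which were lower. Gm23297 is named here after its values were seen.

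Gm25835, a row with box C and D letters in an intron of the translation factor gene Eif4a1, was one of the 2 long snoRNAs called higher with LPS. Without LPS it was at 231 and 116 CPM in wt, 154 and 108 CPM in 3'RR-deficient and 284 CPM in Eµ-deficient cells. With LPS it was at 817 and 728 CPM, 2013 and 849.7 CPM, and 1091 CPM. Each LPS library was above every non-stimulated library. The log2 fold change was 2.62 (SE 0.43, BH-adjusted p = 0.00630). Gm22988 and Gm24029 lie in the same host gene, and their log2 fold changes of 0.58 (SE 0.34, BH-adjusted p = 0.320) and -2.99 (SE 1.07, BH-adjusted p = 0.106) did not pass.

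Scarna8, an H/ACA scaRNA in an intron of Haus6, had the smallest adjusted p among the long snoRNAs. It was at 9.05 and 23.3 CPM in wt, 12.6 and 19.4 CPM in 3'RR-deficient and 75.4 CPM in Eµ-deficient cells without LPS. With LPS the values were 2.51 and 2.49 CPM, 2.16 and 2.05 CPM, and 15.7 CPM. The LPS library was lower in each genotype, but the Eµ-deficient LPS library was above the lowest non-stimulated ones. The log2 fold change was -2.68 (SE 0.35, BH-adjusted p = 0.00382).

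Snora16a, an H/ACA snoRNA of the host Snhg12, was at 422, 552, 581, 505 and 792 CPM in the non-stimulated libraries (wt, 3'RR-deficient, Eµ-deficient, in order of replicate). With LPS it was at 215, 71.7, 185, 91.8 and 140.2 CPM in the same order. The 2 sets did not overlap, and the log2 fold change was -1.995 (SE 0.39, BH-adjusted p = 0.0108). Its neighbours in Snhg12 had log2 fold changes of -0.10 (Snora44, SE 0.34, BH-adjusted p = 0.892) and -1.90 (Snora61, SE 0.72, BH-adjusted p = 0.123). Gm26493, in an intron of Cnot1, was at 6.40 to 24.8 CPM without LPS (median 11.2) and at 0.821 to 6.15 CPM with LPS (median 0.996), and it fell by 3.11 on the log2 scale (SE 0.57, BH-adjusted p = 0.00979).

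Snord17, a C/D snoRNA that guides methylation of the large rRNA, was at 1204 and 756 CPM in wt, 1867 and 499 CPM in 3'RR-deficient and 6898 CPM in Eµ-deficient cells without LPS. With LPS it was at 553 and 286 CPM, 350.2 and 238 CPM, and 1730.2 CPM. Values with LPS were lower in each genotype, but the Eµ-deficient LPS library was above 3 of the 4 non-stimulated wt and 3'RR-deficient libraries. The log2 fold change was -1.69 (SE 0.44, BH-adjusted p = 0.0345). Gm26165, in the same host Snx5, had a log2 fold change of -0.11 (SE 0.59, BH-adjusted p = 0.932).

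**Figure D4:**
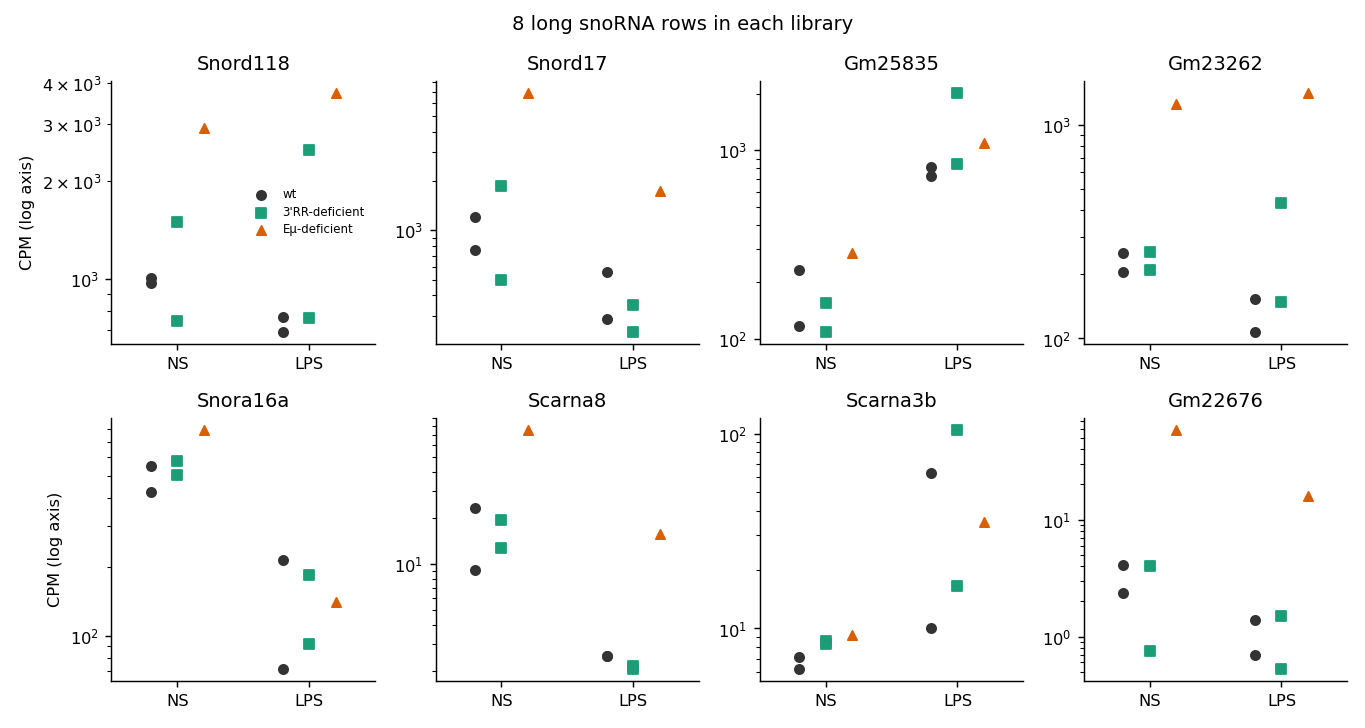
CPM (y, log axis, with its own range in each panel) of 8 long snoRNAs without (NS) and with LPS (x). Each point is 1 library: circles wt, squares 3'RR-deficient, triangles Eµ-deficient. Gm25835 and Scarna3b are higher in each LPS library than in any NS library, Snora16a is lower, and in Gm22676 and Gm23262 both triangles lie above the other points of their condition.

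The snoRNAs that act in rRNA cleavage showed no change past the threshold. Snord118 (U8, large-subunit rRNA) ranged from 746 to 2908 CPM without LPS and from 687 to 3736 CPM with LPS. Its log2 fold change was 0.11 (SE 0.41, BH-adjusted p = 0.899), and its near-copy Gm24208 was at -0.51 (SE 0.48, BH-adjusted p = 0.569). Rnu3a (U3) was at 372 to 569.6 CPM and at 165 to 610.0 CPM, with a log2 fold change of -0.67 (SE 0.40, BH-adjusted p = 0.329). The near-copies Snora73a and Snora73b (U17), which share the host Snhg3, had -1.02 (SE 0.44, BH-adjusted p = 0.169) and -1.06 (SE 0.45, BH-adjusted p = 0.170). The ranges of these rows with and without LPS overlapped.

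By class, 25 of the 107 rows with ACA letters passed (24 lower, 1 higher), with a median log2 fold change of -1.56. Beside all counts by class stands the share over all features, 8.21% (4.19% lower and 4.02% higher). Near-copies were counted as separate rows. Of the 26 rows with a Snora symbol 7 passed, all lower, and 25 of 26 had a negative value. Among the 13 rows typed scaRNA 1 was lower and 1 was higher. Of the 7 rows with C and D letters, Gm25835 was higher and Snord17 was lower. Libraries that did not overlap between conditions, 5 against 5, were found for 12 long snoRNAs that were lower and 3 that were higher, against 3.03% and 6.15% of all features. Higher without overlap, besides Gm25835 and Scarna3b, was Gm22009, a scaRNA in an intron of Kpna4 with a log2 fold change of 1.46 (SE 0.55, BH-adjusted p = 0.121).

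The replicate 2 libraries bore on the size of this response. Between libraries of the same number the median log2 ratio of LPS to non-stimulated was -0.30 for wt replicate 1 and -1.86 for wt replicate 2, -0.17 and -1.25 for 3'RR-deficient cells, and -0.59 for Eµ-deficient cells. Without both non-stimulated replicate 2 libraries the median of the long snoRNAs was -0.59 against 0.15 over all features, and 25 rows passed, 22 of them lower, against 13.3% of all features. Of the 30 rows above, 18 passed there in the same direction. Leaving out single libraries gave 8 to 35 rows, with 8 when wt LPS replicate 2 was dropped, 10 each for wt LPS replicate 1 and for replicate 2 of the LPS-treated 3'RR-deficient cells, 13 for the Eµ-deficient non-stimulated and 14 for the Eµ-deficient LPS library. The part of the high rRNA share in the response was not tested.

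There were 6 long snoRNAs that overlapped a mature microRNA row on the same strand: Scarna3a, Scarna3b, Gm26083, Scarna13, Snora34 and ENSMUST00000157434. Scarna3b (139 nt) was at 6.20, 7.16, 8.30, 8.67 and 9.31 CPM without LPS (wt, 3'RR-deficient, Eµ-deficient, in order of replicate). With LPS it was at 62.4, 10.1, 105, 16.6 and 35.0 CPM. All LPS libraries were above all non-stimulated ones, and the log2 fold change was 2.49 (SE 0.57, BH-adjusted p = 0.0219). The microRNA rows inside it went the other way, with log2 fold changes of -1.26 for miR-1843a-5p (SE 0.45, BH-adjusted p = 0.106) and -2.60 for miR-1843a-3p (SE 0.46, BH-adjusted p = 0.00823). The Scarna3b row held 2565 counts and the miR-1843a-5p row 19971, so most reads of the microRNA row were not counted in the Scarna3b row as well.

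Scarna3a was at 24.8, 45.6, 52.3, 44.3 and 51.1 CPM without and at 199.9, 48.0, 1624, 48.1 and 234 CPM with LPS. The values with LPS were spread widely, 2 of them inside the non-stimulated range, and the log2 fold change of 2.79 (SE 0.83, BH-adjusted p = 0.0588) did not pass. With single libraries left out this value ran from 1.36 to 3.19. Gm26083, in an exon of the noncoding gene Snhg20, was at 4.17, 36.2, 7.99, 18.8 and 27.1 CPM without and at 78.6, 18.9, 366, 17.3 and 524 CPM with LPS. Again 2 LPS values lay inside the non-stimulated range, and the log2 fold change of 2.94 (SE 0.96, BH-adjusted p = 0.0832) did not pass. It fell to 1.59 when the 3'RR-deficient LPS replicate 1 library was dropped and was 3.84 when wt non-stimulated replicate 2 was dropped, where it passed (BH-adjusted p = 0.0168). The 3p arm in Scarna3a, miR-1843b-3p, fell by 2.32 (SE 0.35, BH-adjusted p = 0.00421), and miR-6516-5p in Gm26083 fell by 2.04 (SE 0.35, BH-adjusted p = 0.00774). Their other arms did not pass: miR-1843b-5p had -1.09 (SE 0.45, BH-adjusted p = 0.158) and miR-6516-3p -1.37 (SE 0.78, BH-adjusted p = 0.303). The miR-1843b-5p row held 14983 counts and the miR-1843b-3p row 1739.

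The ratio of a snoRNA row to its microRNA rows within a library does not depend on scaling between libraries. It was formed for the 6 pairs, with a pseudocount of 0.5 counts, after the values of the rows had been seen. For Scarna3b the log2 ratio was -5.51 ± 0.78 (SD, n = 5) without LPS and -2.10 ± 1.08 with LPS. For Scarna3a it was -2.54 ± 0.92 and 0.66 ± 1.87, and for Gm26083 -0.46 ± 1.25 and 4.05 ± 2.00. In each of these 3 pairs every LPS library was above every non-stimulated library (exact permutation test, two-sided, p = 0.00794, the smallest that 5 against 5 allows, and BH-adjusted p = 0.0159 over 6 pairs). Because the rows had been seen first, the p-values of the ratios describe the separation and add no support. The test also left genotype and replicate out of account. ENSMUST00000157434 over miR-1949 rose from -3.01 ± 0.66 to -1.57 ± 0.85 (exact permutation p = 0.0238, BH-adjusted p = 0.0357), with overlap between conditions. Scarna13 and Snora34 did not pass (exact permutation p = 0.476 and p = 0.810), and the microRNA rows in Scarna13 held only 36 counts.

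**Figure D5:**
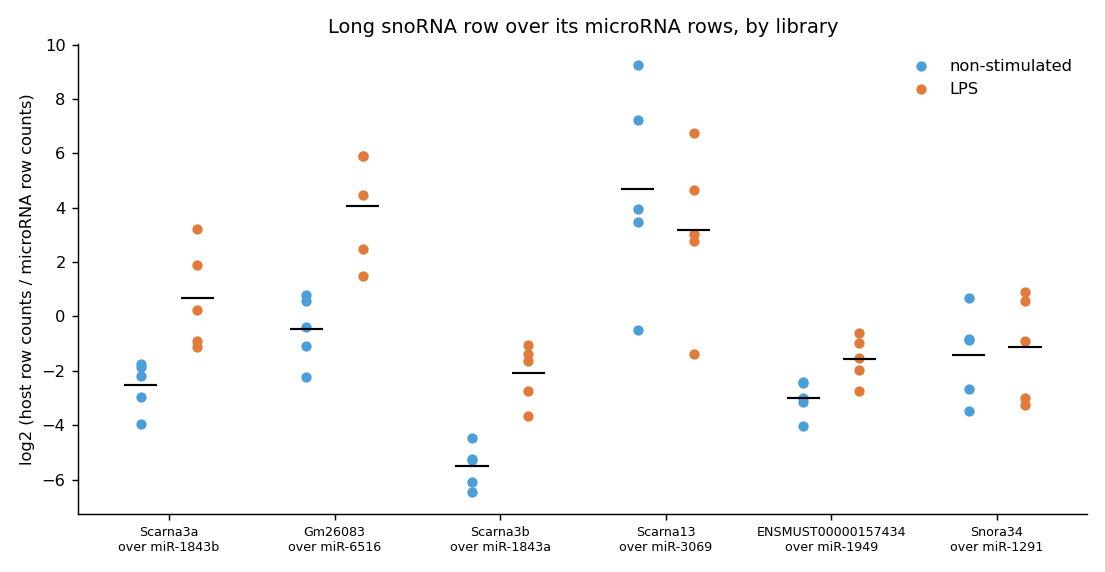
Log2 ratio of the counts of a long snoRNA row to the summed counts of the mature microRNA rows inside it (y), for 6 pairs (x), with 1 point per library and the mean of 5 libraries as a bar. Blue is non-stimulated and orange LPS; in the pairs of Scarna3a, Gm26083 and Scarna3b every orange point is above every blue one, while the points of Scarna13 and Snora34 overlap.

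Within a genotype, in a fit of the 8 wt and 3'RR-deficient libraries in which 141 long snoRNAs were tested, edgeR called none in wt and none in 3'RR-deficient cells, and 0.00% of the 3987 features in either. At an unadjusted p under 0.05 there were 51 and 33 long snoRNAs, against 11.4% and 10.4% of all features, and the DESeq2 Wald test called 9 and 4, against 3.09% and 2.83%. The median log2 fold changes of LPS were -1.69 and -1.33. They moved most with the non-stimulated replicate 2 libraries, with -0.59 in wt when its non-stimulated replicate 2 was dropped and -0.45 in 3'RR-deficient cells when theirs was, and over all single libraries they ran from -2.26 to -0.59 and from -1.95 to -0.45. In 3'RR-deficient cells the median was -0.87 with their LPS replicate 2 dropped. The smallest p-values belonged to Gm26493 in wt (log2 fold change -3.84, SE 0.79, BH-adjusted p = 0.191) and to Scarna8 in 3'RR-deficient cells (-3.05, SE 0.64, BH-adjusted p = 0.266). On simulated counts the LPS comparison within wt recovered 4% of 4-fold and 30% of 8-fold changes. The fit over all genotypes recovered 64% and 99%. The medians above are smaller than a 4-fold change. The simulated counts had the same relative spread for all features and no shift between replicates, unlike these libraries.

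Between 3'RR-deficient and wt cells no long snoRNA passed in edgeR over both conditions, where 0.0220% of the features did. No long snoRNA passed without LPS, with LPS or in the difference of the LPS responses either, and neither did any other feature (0.00%). DESeq2's Wald test also called 0 in each of the 4 comparisons, and in edgeR 1, 3, 1 and 1 long snoRNAs had an unadjusted p under 0.05, against 2.20%, 1.48%, 1.38% and 0.978% of all features. The medians were -0.02 over both conditions, -0.31 without LPS and 0.24 with LPS. With single libraries left out they ran from -0.31 to 0.53, from -0.91 to 0.54 and from -0.36 to 0.64, so the sign of each could turn. The difference had opposite signs between same-numbered libraries without LPS, with medians of 0.20 for replicate 1 and -0.41 for replicate 2. Snora2b, an H/ACA snoRNA in an exon of Kansl2, had the smallest p without LPS and in the difference of responses. It was at 2.54 and 6.14 CPM in wt and at 0.769 and 0.377 CPM in 3'RR-deficient cells without LPS, and at 1.39 and 0.967 against 2.32 and 3.28 CPM with LPS. The groups did not overlap in either condition, but the counts were low (2 to 56 per library). The log2 difference without LPS was -2.88 (SE 0.83, BH-adjusted p = 1.00).

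Eµ-deficient cells had more reads of several long snoRNAs than wt cells. Over both conditions 10 of 143 passed, all higher, against 3.43% of all features (3.34% higher and 0.0878% lower), and the median log2 difference was 0.88 for the long snoRNAs, 1.38 for the short ones (35 of 124 passed) and -0.11 over all features. With single libraries left out the median of the long snoRNAs ran from 0.63 to 1.41. Against 3'RR-deficient cells 12 passed, all higher, with a background of 3.60% (3.45% higher and 0.154% lower), and 7 rows were called in both. The count limit favours rows that are high in the deeply sequenced Eµ-deficient libraries, since 30 of the 143 rows reached 100 counts only with them. Among the 113 rows that reached it in the other 8 libraries, 7 and 7 passed, and the medians were 0.77 and 0.68. There is 1 Eµ-deficient library per condition, so the additive fit used both as replicates of the genotype. It assumed the same LPS response in all genotypes and took the spread from all 10 libraries. With 1 pool of mice per condition, a difference of genotype cannot be told apart from one of pools.

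Gm22676, in an intron of the apoptosis inhibitor gene Aven, stood out most. Without LPS it was at 2.34 and 4.09 CPM in wt, 3.997 and 0.754 CPM in 3'RR-deficient and 58.9 CPM in Eµ-deficient cells. With LPS it was at 1.39 and 0.691 CPM, 1.49 and 0.528 CPM, and 16.04 CPM. The Eµ-deficient value exceeded the other 4 in each condition. The counts of Gm22676 were low in wt and 3'RR-deficient cells, with 4 to 26 per library. The Eµ-deficient libraries held 487 counts without and 360 with LPS. Without these libraries Gm22676 reached the count limit only narrowly. The log2 difference was 4.10 from wt (SE 0.59, BH-adjusted p = 0.00264) and 4.36 from 3'RR-deficient cells (SE 0.60, BH-adjusted p = 0.00237).

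Gm23262, in an exon of the translation factor gene Eif4g2, was at 204, 252.2, 254 and 209 CPM in the other libraries without LPS and at 1260.0 CPM in Eµ-deficient cells. With LPS it was at 153, 107, 431 and 149 CPM, against 1415 CPM. The Eµ-deficient library was again the highest in each condition, and the log2 differences were 2.93 (SE 0.51, BH-adjusted p = 0.00619) and 2.35 (SE 0.50, BH-adjusted p = 0.0220). Scarna8, Snord17, AF357399 (in an intron of Rps16) and Gm24336 also passed in both comparisons, with log2 differences from wt of 2.45, 2.42, 1.57 and 2.37 (SE 0.35 to 0.56). Scarna6 and Gm25395, scaRNAs with C and D letters in the same host Atg16l1, passed in 1 comparison each, Scarna6 from wt (2.71, SE 0.59, BH-adjusted p = 0.0241) and Gm25395 from 3'RR-deficient cells (2.08, SE 0.52, BH-adjusted p = 0.0492).

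The remaining 7 rows called did not reach 100 counts in the wt and 3'RR-deficient libraries and are members only through the Eµ-deficient libraries in which they were high. Their values are therefore a description and support nothing. They were Gm24233, with log2 differences of 2.96 from wt and 2.93 from 3'RR-deficient cells, Gm22488 (3.64) and Gm25683 (3.57) from wt, and Snora34 (3.16), Gm25777 (4.27), Gm22053 (4.11) and Gm24533 (3.78) from 3'RR-deficient cells. Their counts were 0 to 47 per library in wt and 3'RR-deficient cells. In both conditions the Eµ-deficient library was above all 4 others for 47 of 143 long snoRNAs, against 10.8% of all features, and for 72 of the 124 short snoRNAs. Among the 113 rows that reached the count limit in the other libraries it was 27. Rnu3a (U3) did not follow, at 372 CPM without and 323 CPM with LPS and a log2 difference from wt of 0.01 (SE 0.54, BH-adjusted p = 0.995).

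The direction of the median rested on the scaling, whereas the rows called above kept theirs in all 5 scalings. In the fit of snoRNA rows alone the medians were -0.56 from wt and -0.41 from 3'RR-deficient cells, with 1 row higher and 9 lower in each comparison, against 7.97% and 9.97% of the 301 snoRNA rows, and only Gm22676 of the rows above passed there in the same direction. Total count scaling left 4 and 4 rows, all higher, against 2.11% and 2.33% of all features. Without the Eµ-deficient non-stimulated library 0 and 1 rows passed, without the Eµ-deficient LPS library 1 and 1, and without other single libraries 4 to 20 from wt and 2 to 17 from 3'RR-deficient cells. From wt these were 4 without wt non-stimulated replicate 1 (2.12% of all features) or wt LPS replicate 2 (2.31%). There were 5 when replicate 1 of the LPS-treated 3'RR-deficient cells was dropped (2.68%). Without 3'RR-deficient non-stimulated replicate 1 there were 6 (2.43%), and without wt non-stimulated replicate 2 there were 20 (3.83%). From 3'RR-deficient cells they were 2 without 3'RR-deficient LPS replicate 2, 3 without any other 3'RR-deficient library, 6 without wt LPS replicate 1 and 7 without wt non-stimulated replicate 1. Without both non-stimulated replicate 2 libraries 43 (40 higher) and 25 passed, against 7.39% and 5.70% of all features. In a fit that blocks on replicate within each culture condition 45 (41 higher and 4 lower) passed from wt, against 8.48%. Composition moved with the genotype as well: microRNA rows took 60.2% and 51.4% of the Eµ-deficient libraries, the lowest shares of their conditions. The 4 microRNAs taken as B-cell markers summed to 27312 CPM in the Eµ-deficient LPS library against 40495 to 51355 CPM in the other LPS libraries. Of these, miR-142a-5p was below the others, at 16876 CPM against 26982 to 35384 CPM. In that library miR-150-5p, miR-181a-5p and miR-142a-3p each lay inside the range of the other LPS libraries. Without LPS the sum was 95308 CPM, inside the range of the others (66277 to 225825 CPM). Summed over 7 erythroid, myeloid, endothelial and stromal microRNAs, the level was 15622 CPM in the Eµ-deficient library without LPS against 1938 to 6910 CPM in the others, and 2498 against 134 to 841 CPM with LPS, where miR-145a-5p was at 0 in both 3'RR-deficient libraries. Of the 7, 3 were highest in the Eµ-deficient library without LPS and 6 with LPS. The part of cell composition in the snoRNA values was not tested.

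The fixed list of 4 other stable noncoding RNAs was set beside the long snoRNAs. Rmrp, the RNA of the enzyme RNase MRP, which cuts the rRNA precursor, was lower with LPS (log2 fold change -1.88, SE 0.39, BH-adjusted p = 0.0136) and higher in Eµ-deficient than in wt cells (3.30, SE 0.50, BH-adjusted p = 0.00325). Rpph1, the RNA of RNase P, was higher in Eµ-deficient cells (3.00, SE 0.70, BH-adjusted p = 0.0339), and its LPS value of -1.55 (SE 0.55, BH-adjusted p = 0.102) did not pass. Rn7sk, which holds back a transcription elongation factor, had -1.55 with LPS (SE 0.77, BH-adjusted p = 0.235). Terc, the telomerase RNA, which ends in an H/ACA domain of its own, had 0.51 (SE 0.44, BH-adjusted p = 0.516). So 1 of the 4 passed for LPS and 2 of the 4 for Eµ-deficient against wt cells.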

How the data were processed

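Small RNA of 10 libraries was sequenced. Per the labels, the authors trimmed reads with cutadapt 1.2.1 and aligned them to mm10 with Bowtie2. They deposited 1 table of raw counts per feature. The counter, its use of strand and of reads with several matches, and the annotation release are not given in the sources used here, so counts of near-copies are uncertain. Counts were tested with edgeR 4.0.16 in R 4.3.3: TMM scaling, filterByExpr by group, the quasi-likelihood test and Benjamini-Hochberg adjustment over all features tested, at an adjusted p of 0.05. Genotype and stimulation were fitted additively in 10 libraries (4554 features), and group means in the 8 wt and 3'RR-deficient libraries (3987 features). A count of 3 corresponded to 0.134 to 0.614 CPM, the limit that a count of 0 allows. The p-values measure the spread between pools, which may be technical. The study's methods name no test for these data. Scripts were tested on simulated counts.

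Alternatives were DESeq2 1.42.0, 4 other scalings or feature sets, other filters, a replicate block and libraries left out. The members and lists were chosen with earlier results of these data known. Named rows were the 10 highest by mean CPM, the rows called (at most 6 in each direction for LPS), the 3 smallest p where fewer than 3 were called, a fixed list of known snoRNAs and the rows that overlap a microRNA. Neighbours in a host gene, Gm23297 and Snora57 were named after their values were seen.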

Additional observations from a re-analysis of the deposited data

Results flagged for a closer look

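In groups of 5 libraries per condition, 14 of 90 checks found 1 library far from the other 4 by Dixon's test (critical value 0.71). Chance gives about 1 in 20 in rows taken at random, but 10 of the rows below were named because they were called higher in Eµ-deficient cells, so the number of such libraries is a description and not a test. The high library was the Eµ-deficient LPS one for Gm26493 (6.15 CPM), Scarna8 (15.7 CPM), Scarna6 (60.8 CPM), AF357399 (29.3 CPM), Gm22676 (16.04 CPM), Gm24233 (3.21 CPM) and Gm22488 (3.39 CPM). It was also the high one for Gm25683 (2.09 CPM), Gm22053 and Gm24533 (5.26 CPM each) and Snora74a (67.0 CPM). The non-stimulated Eµ-deficient library was high for Gm23262 (1260.0 CPM) and AF357399 (62.1 CPM). Scarna3a was low in wt non-stimulated replicate 1 (24.8 CPM). Of these 14 values, 13 belong to the genotype that has 1 library per condition.

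For 6 rows the LPS response went in opposite directions in 2 genotypes in all their libraries, and these differences were not tested. On the log2 scale Snora2b had 1.27 in 3'RR-deficient and -0.05 in Eµ-deficient cells, and Gm25907 had 1.30 and -0.10. In Eµ-deficient against wt cells the responses were 0.88 and -1.71 for Snora47, 0.17 and -0.82 for Gm23262, 0.36 and -0.45 for Snord118, and 0.48 and -1.05 for Scarna10.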

How the results depend on the processing

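The number of long snoRNAs called moved with the settings, and the share of all features called in the same fit is given after each as a percent. For LPS over all genotypes (30) it was 10 with total count scaling (11.7%), 15 with TMM on microRNA rows (14.4%), 78 with no filter (6 higher, 72 lower, 11.2%), 64 with the DESeq2 Wald test (4 higher, 60 lower, 16.1%), 12 in the 8 wt and 3'RR-deficient libraries (4.51%), and 8 to 35 with single libraries left out (3.73% to 8.22%). For Eµ-deficient against wt cells (10) it was 4 (2.11%), 5 (2.74%), 33 (27 higher, 6 lower, 4.23%) and 20 (18 higher, 2 lower, 5.31%) under the first 4 of these, 43 without both non-stimulated replicate 2 libraries (7.39%) and 0 to 20 with single libraries left out (0.889% to 3.86%). Against 3'RR-deficient cells (12) it was 4 (2.33%), 7 (3.32%) and 28 (4.04%) under the first 3, 25 without both replicate 2 libraries (5.70%) and 1 to 17 with single libraries left out (0.517% to 4.36%). LPS in wt gave 17 with no filter (2.69%) and 9 with DESeq2 (3.09%), and LPS in 3'RR-deficient cells gave 11 with no filter (2.54%), 4 with DESeq2 (2.83%), and 1 with TMM on microRNA rows (0.326%) and 1 with snoRNA rows alone (1.81%). The 3'RR-deficient against wt comparison over both conditions gave 1 with no filter (0.160%). The causes were not tested. The removal of both replicate 2 libraries was chosen after seeing the data.

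The labels do not say that a replicate number marks a shared batch, so the libraries were not taken as paired in the results reported. The differences of replicate 2 from replicate 1 correlated over all features at 0.703 between both non-stimulated genotypes and at 0.378 between both LPS genotypes, but at -0.23 to 0.0056 across conditions. Over the long snoRNAs these values were 0.648, 0.481 and -0.0320 to 0.181. With the replicate number as a block, 40 long snoRNAs passed for LPS (all 30 among them, 10.9% of all features), 9 for each Eµ-deficient comparison (2.96% from wt and 2.94% from 3'RR-deficient cells) and 0 in the others. A block within culture condition gave 45 for Eµ-deficient against wt (41 higher, 4 lower, 8.48%).

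The LPS value reversed for Snord118 (0.11) to -0.0135 in the 8 wt and 3'RR-deficient libraries and to -0.0492 with both non-stimulated replicate 2 libraries removed, and it ranged from -0.38 to 0.26 with single libraries left out (-0.09 for 3'RR-deficient non-stimulated replicate 2, -0.38 for 3'RR-deficient LPS replicate 1). Gm24208 (-0.51) had 0.0757, 0.0156 and 0.0121, and Gm23262 (-0.16) had 0.19, 0.27 and 0.43, under total count scaling, TMM on microRNA rows and snoRNA rows alone, and Gm23262 ranged from -0.62 to 0.0220 with single libraries left out, the highest for wt LPS replicate 2. Scarna10 (-0.55) had 0.11 with snoRNA rows alone, and Snora74a (-1.40) had 0.36 without both replicate 2 libraries. The mean share of 0.726% stayed between 0.641% and 0.789% under other length limits, no minimum count and single libraries left out.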
